A study of Danio rerio with 18 samples.

Results

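Osteoblasts are the cells that lay down bone, and 10 genes of their differentiation and of the mineralisation of their matrix are described here, of 32520 gene IDs in the deposited table. The genes are runx2a, runx2b and sp7 (transcription factors of the lineage), bglap and ifitm5 (genes of the maturing osteoblast), entpd5a, phex and alpl (enzymes that bear on phosphate and mineral), panx3 (a channel) and mgp (an inhibitor of calcification). They were chosen by name, with earlier results of these data known, and all 10 were found among the IDs. The IDs of runx2a and entpd5a carry the symbols RUNX2 and ENTPD5, without the letter that marks the zebrafish copy, and are named here by the zebrafish copy. The values come from bulk RNA sequencing of caudal fins during regeneration, in fish without the regeneration-associated silencer s1 and in wild-type siblings. Silencers are regulatory DNA elements that dampen transcription, and s1 is not itself a gene, so the deletion cannot be checked from a gene's level.

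The wild-type (WT) fish were of the outbred Ekkwill strain, and the knockout (KO) fish, derived from that strain, were homozygous for the loss of s1. Fish of both genotypes were about 4 to 8 months old. Fins were cut at 50% of their length, and tissue was taken at 0 days post amputation (dpa), which is the freshly cut fin, and at 1 and 4 dpa. With 2 genotypes and 3 times there were 6 groups, and 3 libraries in each, every library made from the pooled clips of 10 fish. A pool averages its fish, and how much of the old fin the clips at 1 and 4 dpa held is not given in the sources used here. In bulk tissue, fewer cells of a type and less RNA per cell cannot be told apart, and this holds for every value below.

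As background, osteoblasts form from mesenchymal precursors under the transcription factor Runx2, and Sp7 (also called Osterix) acts after Runx2 to commit them. Mature osteoblasts release phosphate and break down pyrophosphate, so that calcium phosphate crystals grow in their collagen matrix, while other proteins hold calcification back. In the zebrafish fin, osteoblasts line the bony rays. After amputation, those near the cut lose mature features, divide, move towards the wound and later differentiate again to build new ray bone.

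Libraries held 58.6 M to 155 M reads assigned to genes (M, 1e6 reads). The 5 most abundant genes took 2.71% to 90.5% of a library's reads. Below, a low-share library is any of the 4 in which they took less than 20%. These were replicates 2 and 3 of WT and replicate 2 of KO at 0 dpa, with replicate 1 of KO at 1 dpa. Their share was at most 10.9%, against 32.3% or more in the other 14. Values are the deposited normalised counts, that is, reads scaled by each library's size factor. They are not corrected for gene length, so levels are compared within a gene and not between genes. Changes were tested with limma on log2(normalised count + 1), and a gene is called where its Benjamini-Hochberg adjusted p-value, taken over the 22779 tested genes together, is under 0.05. Folds are ratios of group means, and log2 values are differences of mean log2(normalised count + 1).

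The mature osteoblast gene bglap (osteocalcin) and alpl, the tissue-nonspecific alkaline phosphatase that breaks down pyrophosphate, were listed at 0 in all 18 libraries. The related ID bglapl was listed at 0 throughout as well. So were rpl13a and ppiaa, genes that every cell uses, and 6 of 89 IDs with ribosomal protein symbols. The zeros of bglap and alpl are therefore given as listings only, with no statement on expression. The other 8 genes had a normalised count of at least 22.4 in every library and were tested.

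The lineage factor runx2a rose at 1 dpa and fell back in part by 4 dpa. In WT fins its normalised counts were 2917, 1289 and 1264 at 0 dpa, 6997, 6261 and 6305 at 1 dpa, and 2864, 3473 and 3230.2 at 4 dpa. In KO fins they were 3093, 1159 and 2395 at 0 dpa, 5897, 6311 and 5955 at 1 dpa, and 3735, 3676 and 3649.7 at 4 dpa. All 6 libraries at 1 dpa lay above all 12 others. From 0 to 1 dpa runx2a rose 3.58-fold in WT (log2 1.95, SE 0.31, adjusted p = 0.000203) and 2.73-fold in KO (log2 1.56, adjusted p = 0.00136). By 4 dpa it had fallen 2.04-fold from there in WT (log2 -1.03, adjusted p = 0.0375), while the KO value was -0.71 on the log2 scale and was not called (adjusted p = 0.1). The KO fall was called in 4 alternative settings. Without the low-share libraries its log2 value was -0.73, and with the share of the dominant genes as a covariate it was -1.06 (adjusted p = 0.00549). Without WT 0 dpa replicate 1 or KO 0 dpa replicate 2, neither of which is compared, it stayed at -0.71. Only the estimate of the spread, which all groups share, differed in those fits.

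At 0 dpa the values of runx2a moved with the read share of the dominant genes. The 3 low-share libraries held 1159 to 1289 and the other 3 held 2395 to 3093. Against this uneven start, runx2a was called higher at 4 than at 0 dpa in WT (log2 0.92, adjusted p = 0.0204) and in KO (log2 0.85, adjusted p = 0.0341). Without the low-share libraries, which leaves 1 WT library at 0 dpa, the WT value was 0.12 and the WT rise at 1 dpa was 1.16. The KO value was then 0.44 (adjusted p = 0.0106), and the KO rise at 1 dpa remained called, at 1.17 (adjusted p = 1.5e-05). Among the leave-one-out fits, the WT fall from 1 to 4 dpa lost its call without any 1 of the 6 libraries compared, and also without KO 4 dpa replicate 1 or 2.

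The second Runx2 copy, runx2b, followed another course, with its highest values at 4 dpa. In WT fins its normalised counts were 1785, 851 and 782 at 0 dpa, 1277, 1154 and 1311 at 1 dpa, and 2008, 2402 and 2209 at 4 dpa. In KO fins they were 1745, 763 and 1442 at 0 dpa, 993, 1414 and 1343 at 1 dpa, and 2237, 2430.2 and 2672 at 4 dpa. All 6 libraries at 4 dpa lay above the other 12. The change from 0 to 1 dpa was 0.23 on the log2 scale in WT (adjusted p = 0.554) and -0.01 in KO (adjusted p = 0.988), and neither was called. From 0 to 4 dpa runx2b rose 1.94-fold in WT (log2 1.05, adjusted p = 0.00687) and 1.86-fold in KO (log2 0.97, adjusted p = 0.0129). From 1 to 4 dpa it rose 1.96-fold in KO (log2 0.98, SE 0.30, adjusted p = 0.0226), and in WT the log2 value of 0.82 was not called (adjusted p = 0.0757). It was called without the low-share libraries, at the same value of 0.82, as none of these is a WT library of 1 or 4 dpa. Only the estimate of the spread, which all groups share, differed there (SE 0.11). Its low-share libraries at 0 dpa held 763 to 851 and the others 1442 to 1785. Without the low-share libraries, which leaves 1 WT library at 0 dpa, the WT change from 0 to 4 dpa was 0.30 and that from 0 to 1 dpa -0.52. With the share of the dominant genes as a covariate the KO change from 0 to 4 dpa was 0.23 and was not called (adjusted p = 0.529). That share did not overlap between these times in KO.

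The committing factor sp7 fell at 1 dpa and rose above its starting level by 4 dpa. Its normalised counts in WT were 384, 373 and 304 at 0 dpa, 237, 192 and 177 at 1 dpa, and 542, 757 and 700.0 at 4 dpa. In KO they were 285, 379 and 277 at 0 dpa, 187, 192 and 154 at 1 dpa, and 837, 1051 and 952 at 4 dpa. The 6 libraries at 1 dpa were the lowest and the 6 at 4 dpa the highest, with no overlap between times. The fall was 1.75-fold in WT (log2 -0.81, SE 0.19, adjusted p = 0.00326) and 1.77-fold in KO (log2 -0.81, adjusted p = 0.00377). Between 1 and 4 dpa sp7 rose 3.30-fold in WT (log2 1.71, adjusted p = 1.09e-05) and 5.33-fold in KO (log2 2.41, adjusted p = 1.75e-07). At 4 dpa it stood 1.88-fold above 0 dpa in WT (log2 0.91, adjusted p = 0.000773) and 3.02-fold in KO (log2 1.60, adjusted p = 6.08e-06). Thus runx2a and sp7 changed in opposite directions at 1 dpa, each in both genotypes.

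**Figure D1:**
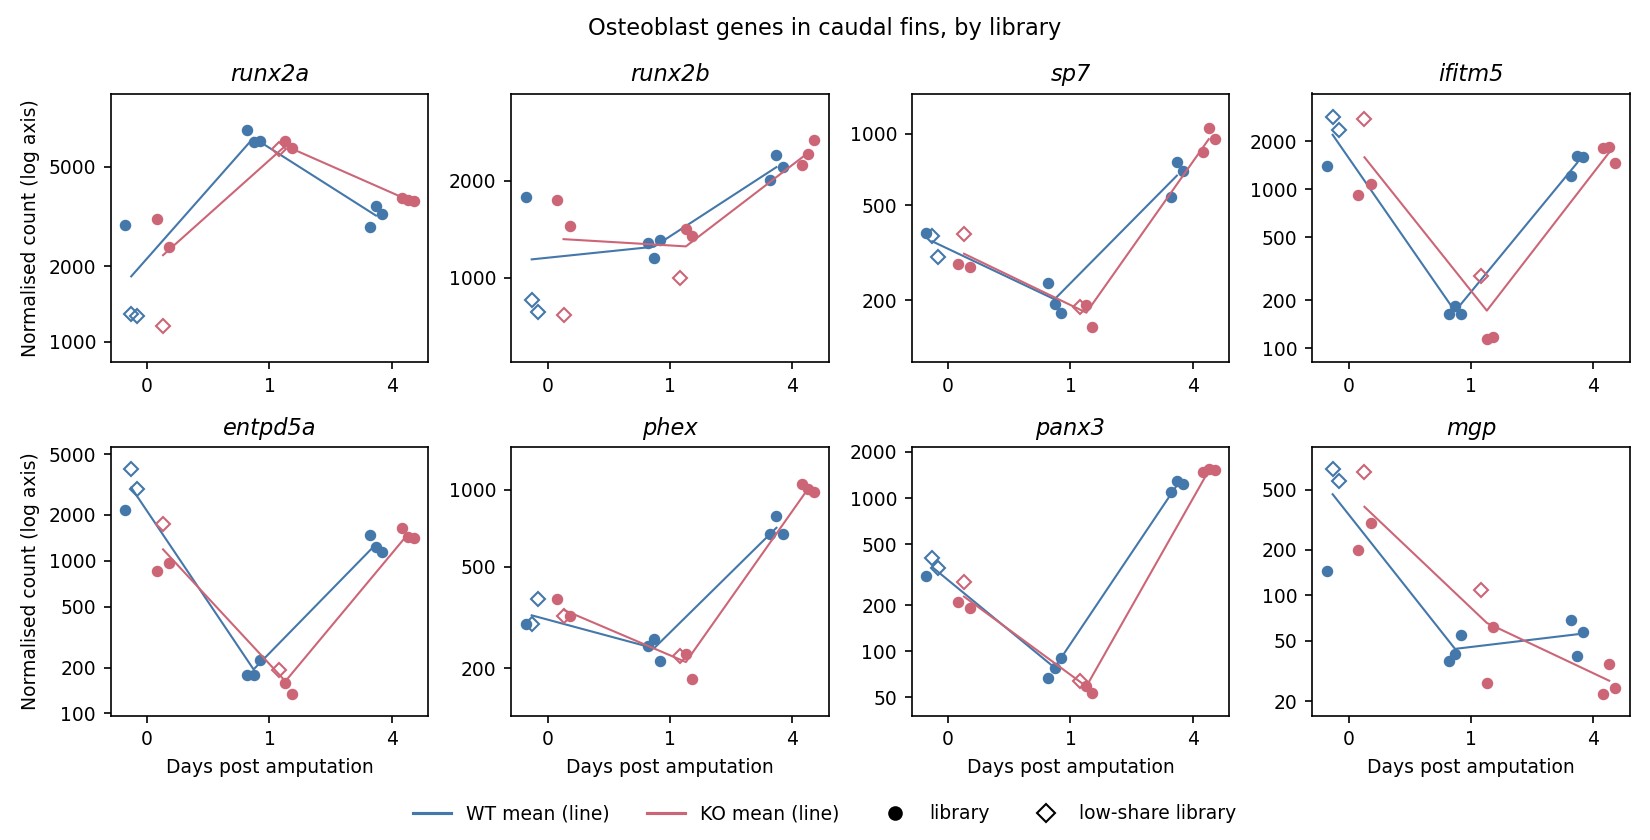
Normalised counts (log axis, its range set for each gene) of the 8 osteoblast genes with values above 0, against days post amputation, with 1 point for each library, open diamonds for the low-share libraries and lines through the group means. For sp7, ifitm5, entpd5a, phex and panx3 the 6 libraries at 1 dpa lie below all others, for runx2a they lie above all others, and mgp falls after 0 dpa and stays low.

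Osteoblast maturation was followed by ifitm5 (also called Bril), a small membrane protein of bone-forming osteoblasts that is mutated in a form of human brittle bone disease. Its normalised counts in WT were 1389, 2849.8 and 2344 at 0 dpa, 164, 184 and 164 at 1 dpa, and 1202, 1617 and 1583 at 4 dpa. In KO they were 923, 2755 and 1077 at 0 dpa, 285, 114 and 117 at 1 dpa, and 1809.6, 1835 and 1459.6 at 4 dpa. The libraries at 1 dpa lay below all others, and those at 0 and 4 dpa overlapped. ifitm5 fell 12.9-fold in WT by 1 dpa (log2 -3.62, SE 0.39, adjusted p = 4.21e-06) and 9.20-fold in KO (log2 -3.15, adjusted p = 1.56e-05). It then rose 8.60-fold in WT (log2 3.09, adjusted p = 4.79e-05) and 9.88-fold in KO (log2 3.43, adjusted p = 9.84e-06). Its level at 4 dpa was not called different from 0 dpa in WT (log2 -0.53, adjusted p = 0.254) or in KO (log2 0.27, adjusted p = 0.583). The low-share libraries at 0 dpa held 2344 to 2849.8, and the others 923 to 1389, the opposite order to runx2a. Without the low-share libraries the KO value at 4 against 0 dpa became a called rise (log2 0.76, adjusted p = 0.000816). The WT value, with 1 WT library left at 0 dpa, was 0.07.

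The phosphate-releasing enzyme gene entpd5a, whose loss stops bone mineralisation in zebrafish, had the largest fall of the 8 genes in WT at 1 dpa. Its normalised counts in WT were 2153, 3979.8 and 2949 at 0 dpa, 180.0, 179 and 225 at 1 dpa, and 1489, 1231 and 1138 at 4 dpa. In KO they were 854, 1754 and 963 at 0 dpa, 194, 159 and 135 at 1 dpa, and 1634, 1434 and 1409.6 at 4 dpa. The WT libraries at 0 dpa were the 3 highest of all 18, and the 6 at 1 dpa the lowest. The fall was 15.6-fold in WT (log2 -3.92, SE 0.26, adjusted p = 2.52e-08) and 7.32-fold in KO (log2 -2.80, adjusted p = 6.9e-07). From 1 to 4 dpa entpd5a rose 6.61-fold in WT (log2 2.72, adjusted p = 2.59e-06) and 9.18-fold in KO (log2 3.20, adjusted p = 2.49e-07). It remained 2.35-fold below its 0 dpa level in WT (log2 -1.20, adjusted p = 0.00103), whereas the KO value of 0.40 was not called (adjusted p = 0.212). In KO entpd5a was called higher at 4 than at 0 dpa without 0 dpa replicate 2 (log2 0.72, adjusted p = 0.0211) and with the share of the dominant genes as a covariate (log2 0.93, adjusted p = 0.00832). That share did not overlap between these times in KO, so the fit cannot fully part share from time.

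The endopeptidase gene phex is expressed in osteoblasts and osteocytes, and its loss in humans causes phosphate wasting and rickets. Its normalised counts in WT were 298, 298 and 372 at 0 dpa, 244, 261 and 214 at 1 dpa, and 670.3, 792 and 670.3 at 4 dpa. In KO they were 375, 321 and 321 at 0 dpa, 224, 229 and 182 at 1 dpa, and 1052, 1008 and 979 at 4 dpa. As for sp7, the 3 times did not overlap, and 1 dpa was the lowest and 4 dpa the highest. The fall at 1 dpa was 1.60-fold in KO (log2 -0.68, SE 0.15, adjusted p = 0.0031) and 1.35-fold in WT (log2 -0.42, adjusted p = 0.0365). The WT call was lost in 8 of 29 alternative settings, among them edgeR's quasi-likelihood test (adjusted p = 0.0541). From 1 to 4 dpa phex rose 2.97-fold in WT (log2 1.56, adjusted p = 3.62e-06) and 4.79-fold in KO (log2 2.26, adjusted p = 4.6e-08), to 2.20-fold (log2 1.14, adjusted p = 2.59e-05) and 2.99-fold (log2 1.58, adjusted p = 8.55e-07) above 0 dpa.

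The pannexin channel gene panx3, which is expressed in osteoblasts and cartilage cells in mice, had the largest rise from 1 to 4 dpa of the 8 genes. Its normalised counts in WT were 308, 405 and 350.1 at 0 dpa, 66.8, 77.5 and 89.8 at 1 dpa, and 1101, 1296 and 1237 at 4 dpa. In KO they were 209.6, 281 and 191 at 0 dpa, 64.2, 59.3 and 52.9 at 1 dpa, and 1475, 1537 and 1515 at 4 dpa. The times did not overlap, and at each time the 2 genotypes did not overlap either. panx3 fell 4.54-fold in WT by 1 dpa (log2 -2.17, SE 0.17, adjusted p = 2.03e-07) and 3.86-fold in KO (log2 -1.92, adjusted p = 6.67e-07). It then rose 15.5-fold in WT (log2 3.95, adjusted p = 5.14e-10) and 25.7-fold in KO (log2 4.66, adjusted p = 8.46e-11). At 4 dpa it stood 3.42-fold above 0 dpa in WT (log2 1.78, adjusted p = 1.34e-06) and 6.64-fold in KO (log2 2.75, adjusted p = 1.09e-08).

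Matrix Gla protein, encoded by mgp, holds calcification back, and mice without it calcify their arteries and cartilage. Its normalised counts in WT were 146, 684 and 569.9 at 0 dpa, 37.0, 40.7 and 55.1 at 1 dpa, and 69.3, 39.9 and 56.9 at 4 dpa. In KO they were 199, 655 and 302 at 0 dpa, 109, 26.2 and 61.9 at 1 dpa, and 22.4, 35.1 and 24.3 at 4 dpa. All libraries at 0 dpa lay above all later ones, and mgp did not return with the other genes. It fell 10.5-fold in WT by 1 dpa (log2 -3.11, SE 0.57, adjusted p = 0.000568) and 5.86-fold in KO (log2 -2.57, adjusted p = 0.00267). The change from 1 to 4 dpa was not called in WT (log2 0.30, adjusted p = 0.757) or KO (log2 -1.05, adjusted p = 0.181), and 4 dpa remained 8.43-fold below 0 dpa in WT (log2 -2.81, adjusted p = 0.000642) and 14.1-fold in KO (log2 -3.62, adjusted p = 9.85e-05). Like ifitm5, mgp was high in the low-share libraries at 0 dpa, at 569.9 to 684 against 146 to 302 in the others. Without the low-share libraries, which leaves 1 WT library at 0 dpa, its WT fall at 1 dpa was smaller, at -1.72 on the log2 scale. Its values at 4 dpa rest on 16 to 28 reads per library, too few for small differences to be detectable.

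Counted together, 1 of the 8 tested genes rose and 6 fell from 0 to 1 dpa in WT, where 40.2% of all tested genes were called (19.1% higher and 21.1% lower). In KO the counts were 1 and 6 as well, where 29.3% of genes were called (15.4% higher and 13.9% lower). Between 1 and 4 dpa 5 rose and 1 fell in WT (13.8% of genes called, 7.17% higher and 6.61% lower), and 6 rose and 0 fell in KO (27.9% called, 11.6% higher and 16.2% lower). From 0 to 4 dpa 5 rose and 2 fell in WT (55.6% called, 25.9% higher and 29.6% lower), and 5 rose and 1 fell in KO (49% called, 23.3% higher and 25.7% lower). The median log2 change of the 8 genes was -1.49 in WT and -1.36 in KO at 1 against 0 dpa, and 1.64 and 2.33 at 4 against 1 dpa, while the median of all tested genes lay between -0.03 and -0.02 in these comparisons. By overlap alone, 7 of the 8 genes were apart between 0 and 1 dpa in WT and 7 in KO, where 51.7% and 37.1% of all tested genes were, and 7 in each between 1 and 4 dpa, where 42.6% and 49.6% were. The comparisons share libraries (those of 1 dpa enter both), so the fall and the later rise are not independent values.

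**Figure D2:**
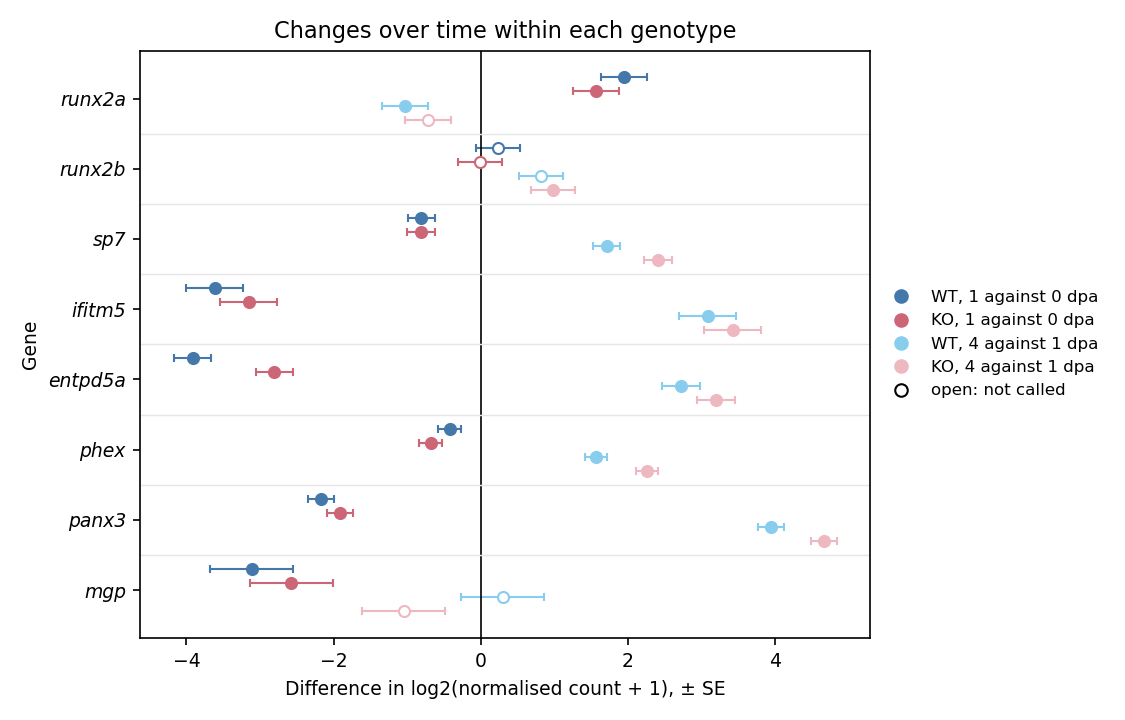
Difference in log2(normalised count + 1), with its standard error, for each osteoblast gene from 0 to 1 dpa and from 1 to 4 dpa in WT and KO fins; filled points were called by limma. sp7, ifitm5, entpd5a, phex and panx3 have a called fall followed by a called rise in both genotypes, runx2a rises first, and mgp falls without a called rise.

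Among the 8 genes, ifitm5 and entpd5a had the most similar profiles over the 18 libraries (Pearson r = 0.972 of log2 values), followed by sp7 and panx3 (0.971), sp7 and phex (0.963), and phex and panx3 (0.948). runx2a ran against ifitm5 (-0.845) and entpd5a (-0.860). Of 15688 other genes with a descriptive symbol and a mean of at least 20, those most like sp7 were GULP1 (0.971), MYLK (0.969), CRIP2 (0.968), slc8a4b (0.966) and TMEM198 (0.965). Those most like mgp were cfd (0.979), mhc2daa (0.978), CAV2 (0.975), CMBL (0.973) and HPD (0.973). These coefficients describe 18 libraries that share 3 times and, at 0 dpa, the split by share of dominant genes, and carry no test.

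The study asked how the loss of s1 changes expression, and in none of the 8 tested genes was a difference between KO and WT called. Of all tested genes, 0.101% were called at 0 dpa, 0.00439% at 1 dpa, 0.0351% at 4 dpa and 0.14% averaged over the times. Unadjusted p-values under 0.05 were found for 1093, 465, 925 and 730 of 22779 genes. edgeR's quasi-likelihood test called 31, 1, 4 and 33 genes and DESeq2 96, 20, 15 and 56. The sizes and intervals below say what the 3 libraries a group leave possible.

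The largest difference among these genes was that of entpd5a in fresh fins. Its mean at 0 dpa was 3027 ± 916 in WT and 1190.1 ± 491 in KO (SD, n = 3), 2.54-fold lower in KO, and the lowest WT library (2153) lay above the highest KO library (1754). On the log2 scale the difference was -1.38 (95% interval -1.92 to -0.83), with an adjusted p = 0.0572 in limma and 0.0555 in edgeR, neither under the threshold, and 0.000782 in DESeq2. The low-share libraries held 3979.8 and 2949 in WT and 1754 in KO. The others held 2153 in WT (share of the dominant genes 34.3%) and 854 and 963 in KO (57.9% and 32.3%). Each split has a single library on a side, and the part of the share in the difference was not tested. With the share of the dominant genes as a covariate the difference was -1.20 and was called (adjusted p = 0.0107), without KO 0 dpa replicate 2 it was -1.69 (adjusted p = 0.00403), and over the 29 alternative settings the adjusted p ran from 0.000782 to 0.445, with 6 calls. At 1 dpa the difference was -0.26 (95% interval -0.81 to 0.28) and at 4 dpa 0.22 (95% interval -0.32 to 0.76).

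panx3 lay lower in KO than in WT at 0 and 1 dpa and higher at 4 dpa. Its means were 354 ± 48.6 in WT and 227 ± 47.5 in KO at 0 dpa, 78.0 ± 11.5 and 58.8 ± 5.67 at 1 dpa, and 1211 ± 100.0 and 1509 ± 31.0 at 4 dpa (SD, n = 3 each). The log2 differences were -0.65 (95% interval -1.02 to -0.28, adjusted p = 0.432), -0.40 (-0.77 to -0.03, adjusted p = 1) and 0.32 (-0.05 to 0.69, adjusted p = 1). DESeq2 called the difference at 0 dpa (adjusted p = 0.0401), and over the 29 alternatives its adjusted p ran up to 1. At 0 dpa the low-share libraries held 405 and 350.1 in WT and 281 in KO, and the others 308 in WT and 209.6 and 191 in KO. Each of these splits, too, has a single library on a side, and the part of the share was not tested.

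At 4 dpa the KO libraries of runx2a, sp7, phex and panx3 all lay above the WT libraries, and those of mgp below. The means of sp7 were 666 ± 112 in WT and 947 ± 107 in KO (SD, n = 3), a log2 difference of 0.51 (95% interval 0.12 to 0.91, adjusted p = 1). Those of phex were 711 ± 70.4 and 1013 ± 36.5, a log2 difference of 0.51 (95% interval 0.19 to 0.84, adjusted p = 0.697). For runx2a they were 3189 ± 306 and 3687 ± 43.9 (log2 0.21, 95% interval -0.45 to 0.88), and for mgp 55.3 ± 14.8 and 27.3 ± 6.84 (log2 -0.99, 95% interval -2.18 to 0.21). Thus 4 of the 8 genes were higher and 1 lower without overlap, where 11% of all tested genes did not overlap (5.49% higher and 5.46% lower in KO). At 0 dpa 2 of 8, entpd5a and panx3, did not overlap (7.14% of genes, 3.14% lower in KO), and at 1 dpa 1 of 8, panx3 (8.45% of genes, 4.03% lower). The genes are not independent of each other, since sp7, phex and panx3 have like profiles, and no test over them together was made. The reads outside the 5 dominant genes also differed between genotypes at 4 dpa, at 10.5 M to 10.9 M in WT and 16.4 M to 19.7 M in KO, and their part in these differences was not tested.

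For ifitm5 and runx2b the intervals included 0 at every time. The KO minus WT log2 value of ifitm5 was -0.59 at 0 dpa (95% interval -1.40 to 0.23), -0.12 at 1 dpa (-0.94 to 0.70) and 0.22 at 4 dpa (-0.60 to 1.04). That of runx2b was 0.23 (-0.40 to 0.86), -0.01 (-0.64 to 0.62) and 0.15 (-0.48 to 0.78). Differences up to these bounds are not excluded by the data. Single libraries moved these values. ifitm5 was at -1.07 at 0 dpa without KO replicate 2 and at -0.55 at 1 dpa without KO replicate 1. runx2b at 0 dpa was at 0.61 without WT replicate 1 and at 0.58 without KO replicate 2. With all 4 low-share libraries left out, which leaves 1 WT library at 0 dpa, runx2b was at -0.17 there.

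**Figure D3:**
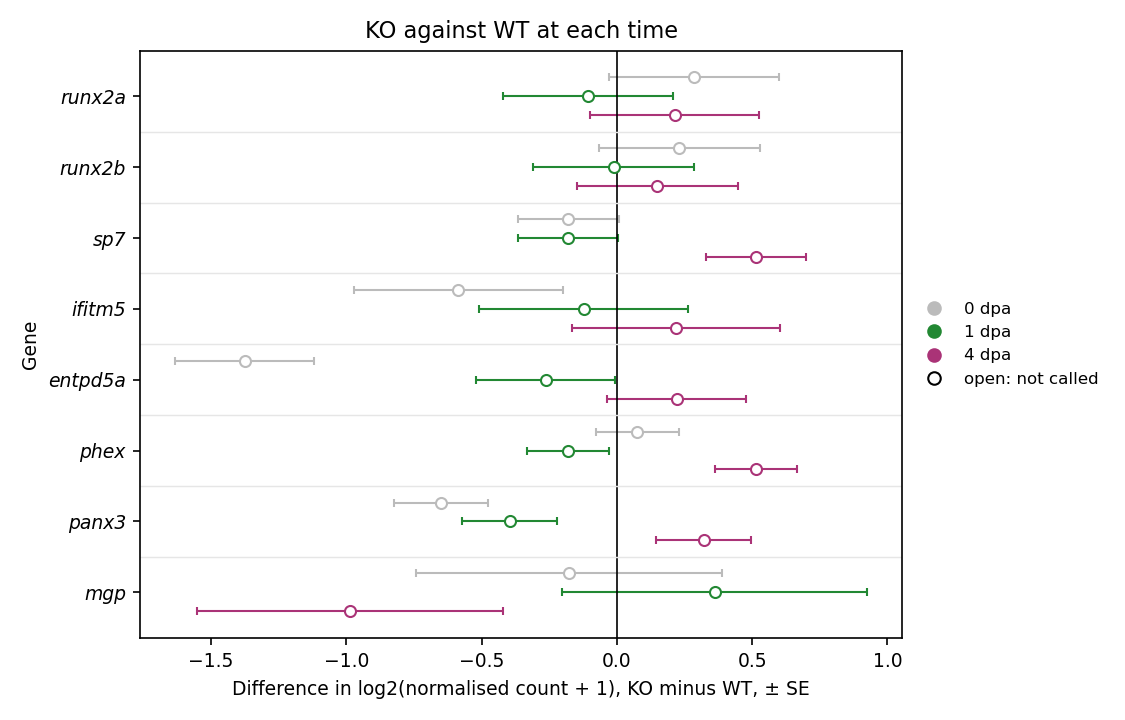
KO minus WT difference in log2(normalised count + 1), with its standard error, for each osteoblast gene at 0, 1 and 4 dpa; open points mean that limma did not call it, which holds for all 24 values. entpd5a at 0 dpa has the largest difference (-1.38), and sp7, phex and panx3 lie below or near 0 at 0 and 1 dpa and above 0 at 4 dpa.

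Interaction terms tested whether KO and WT fins responded differently to amputation. None of the 8 genes was called for the change from 0 to 1, from 0 to 4 or from 1 to 4 dpa, where limma called 0% of all genes in each (950, 888 and 596 genes had an unadjusted p under 0.05). The counts were 0, 0 and 0 in edgeR and 5, 1 and 0 in DESeq2. For entpd5a the log2 change from 0 to 4 dpa was -1.20 in WT and 0.40 in KO, a KO minus WT difference of 1.60 (95% interval 0.83 to 2.37, adjusted p = 0.992). For panx3 it was 1.78 and 2.75, a difference of 0.97 (95% interval 0.45 to 1.49, adjusted p = 0.992).

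Other genes of bone were read from 4 further lists. Their counts stand against the same shares of all tested genes, 19.1% higher and 21.1% lower in WT (15.4% and 13.9% in KO) from 0 to 1 dpa, and 7.17% and 6.61% in WT (11.6% and 16.2% in KO) from 1 to 4 dpa. Of 20 tested lineage regulators, 4 rose and 2 fell from 0 to 1 dpa in WT, near or below the share of all genes, and 8 rose and 0 fell from 1 to 4 dpa. In KO 5 rose and 0 fell, and then 9 rose and 0 fell. lef1, a transcription factor of Wnt signalling, rose 4.01-fold in WT by 1 dpa, the mean going from 388 to 1557 (log2 2.00, adjusted p = 3.55e-07). twist3, of the Twist family of mesenchymal transcription factors, rose from 232 to 1712 between 1 and 4 dpa in WT (log2 2.87, adjusted p = 1.86e-07) and from 177 to 1714 in KO (log2 3.29, adjusted p = 2.44e-08). twist1a fell 2.22-fold in WT at 1 dpa (log2 -1.12, adjusted p = 0.0177). The list's median log2 change was 0.19 in WT at 1 against 0 dpa and 0.60 at 4 against 1 dpa.

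Most of the called bone matrix genes fell at 1 dpa, and those called from 1 to 4 dpa rose. Of 22 tested, 2 rose and 13 fell by 1 dpa in WT (median log2 -0.997), and 13 rose and 0 fell from 1 to 4 dpa (median 0.98). In KO 1 rose and 12 fell (median -0.82), and then 19 rose and 0 fell (median 1.39). COL10A1, the collagen X gene, which zebrafish osteoblasts express, fell 9.38-fold in WT at 1 dpa, its mean going from 20431 to 2179 (log2 -3.13, adjusted p = 3.79e-05). It then rose 13.1-fold to 28585 (log2 3.71, adjusted p = 1.65e-05), and in KO 18.3-fold from 1969 to 36019 (log2 4.32, adjusted p = 1.92e-06). Another ID with the symbol COL10A1 was listed at 0 in every library. A copy of the proteoglycan gene BGN (biglycan, ENSDARG00000017884) fell from 2150.3 to 398 in WT at 1 dpa (log2 -2.40, adjusted p = 1.05e-05). The 2 rising genes at 1 dpa were the copies of COL12A1, a collagen of fibril surfaces, with log2 values of 2.25 (ENSDARG00000078322) and 0.88 (ENSDARG00000019601). Reads of near-identical copies can fall on either.

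Most of the called genes of phosphate and mineral handling fell at 1 dpa, where 2 of 22 tested rose and 9 fell in both WT and KO (median log2 -0.48 and -0.50). At 4 against 1 dpa 4 rose and 1 fell in WT, and 7 rose and 2 fell in KO. The largest rises were those of phospho1 and smpd3. phospho1, a phosphatase that frees phosphate from phosphocholine, rose 18.3-fold in WT, between means of 52.1 and 953 (log2 4.21, adjusted p = 3.11e-07) and 27.6-fold in KO from 37.7 to 1042 (log2 4.83, adjusted p = 4.26e-08). smpd3, a sphingomyelinase that makes phosphocholine, rose 18.2-fold in WT from 88.5 to 1608 (log2 4.18, adjusted p = 1.03e-08) and 23.1-fold in KO (log2 4.55, adjusted p = 2.58e-09). The 2 genes of the list that rose in WT at 1 dpa were enpp1 and a copy of ANKH. enpp1, an enzyme that makes pyrophosphate, a blocker of crystal growth, rose 2.31-fold in WT (log2 1.22, adjusted p = 4.51e-05), and ANKH (ENSDARG00000071724), which bears on pyrophosphate export, rose 5.34-fold (log2 2.43, adjusted p = 2.57e-05). ANKH fell again by 4 dpa (log2 -1.30, adjusted p = 0.0114). sost, which encodes the Wnt inhibitor sclerostin, fell 3.51-fold in WT at 1 dpa, from 312 to 88.9 (log2 -1.75, adjusted p = 0.000216), and rose in part by 4 dpa (log2 1.09, adjusted p = 0.0172).

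Of 13 tested genes of the signals that reach fin osteoblasts, 8 rose and 0 fell by 1 dpa in WT, and 7 and 0 in KO. From 1 to 4 dpa 4 rose and 3 fell in WT, and 7 and 3 in KO. For 1 of the 2 IDs with the symbol FGF20, the WT mean rose 14.5-fold by 1 dpa, from 7.02 to 102 (log2 3.72, adjusted p = 3.27e-05). An Fgf20 product starts fin regeneration in zebrafish, and the symbol does not say which ID encodes it. aldh1a2, which makes retinoic acid, rose 4.27-fold (log2 2.10, adjusted p = 3.42e-06), and cyp26b1, which breaks it down, rose 2.41-fold (log2 1.44, adjusted p = 0.0105). By 4 dpa FGF20, aldh1a2 and BMP2 had fallen in WT (log2 -1.62, -0.97 and -0.92), while ptch1, a receptor and target of hedgehog signalling, and wnt5b had risen (log2 1.17 and 0.94). Another ID with the symbol BMP2 was listed at 0 in every library. None of the tested genes of these 4 lists was called between KO and WT at any time.

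**Figure D4:**
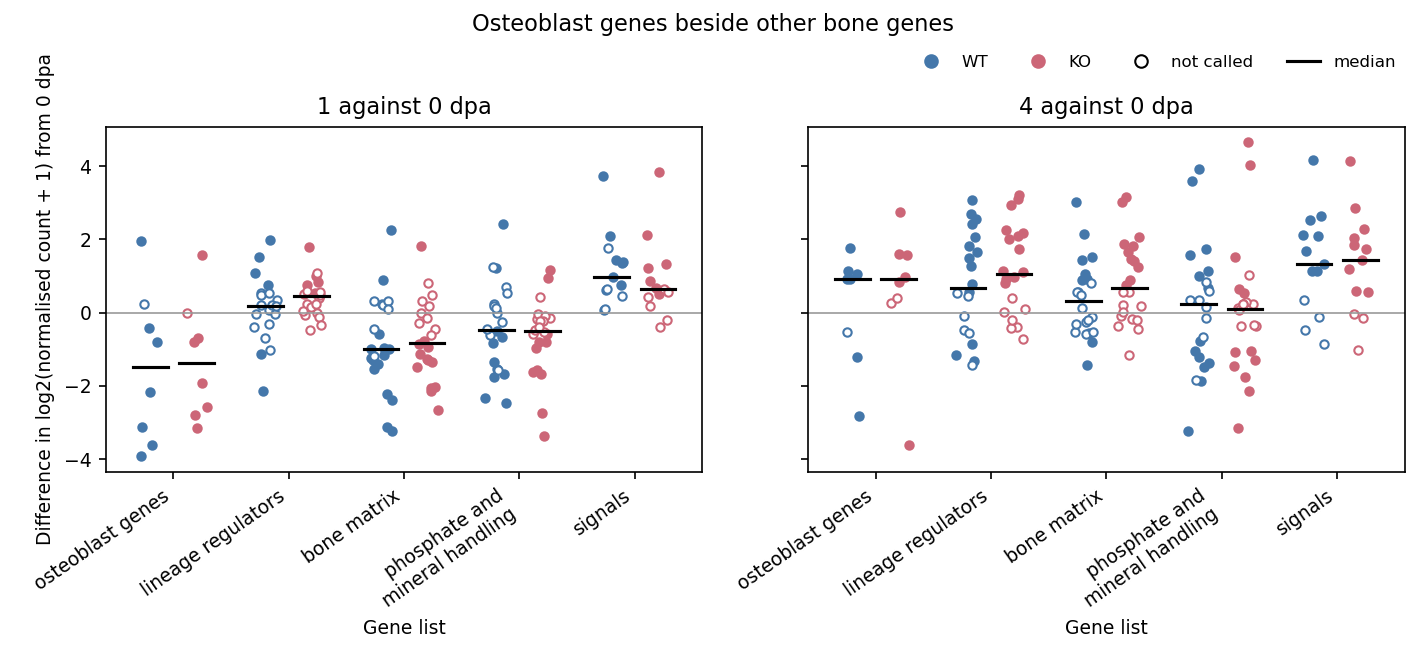
Difference in log2(normalised count + 1) from 0 dpa at 1 dpa (left) and 4 dpa (right) for the osteoblast genes and 4 further bone lists, with 1 point for each tested gene, filled where limma called it, and bars at the medians. At 1 dpa the osteoblast genes (median -1.49 in WT) and the bone matrix genes (-0.997) lie mostly below 0 and the signals (0.96) above it, and at 4 dpa all 5 medians in WT are above 0.

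Markers of other cells moved over the same times, and their part in the results above was not tested. The counts below stand against 19.1% of all tested genes higher and 21.1% lower in WT from 0 to 1 dpa, 7.17% and 6.61% from 1 to 4 dpa, and 25.9% and 29.6% from 0 to 4 dpa. Of 15 cartilage marker IDs, all above 0 in some library, 12 were tested, and in WT 1 rose and 5 fell by 1 dpa and 3 rose and 0 fell from 1 to 4 dpa. Their summed normalised count was 7742 to 19470 in WT at 0 dpa, 2156 to 2822 at 1 dpa and 8593 to 9941 at 4 dpa, and in KO 6638 to 17699, 1694 to 3175 and 10214 to 10786. Among them col11a2 went from a WT mean of 1713 to 517 and then to 4568, and ucmaa from 10453 to 535 and then to 656. ucmaa had the largest part in the WT sums at 0 dpa (mean sum 15268), so these sums do not stand for the list as a whole. From 0 to 4 dpa 3 cartilage markers rose and 2 fell in WT. The 9 osteoclast marker IDs, of the cells that resorb bone, were all above 0 and tested, and 5 rose and 0 fell by 1 dpa in WT, with sums of 12010 to 12460 at 0 dpa, 17378 to 24626 at 1 dpa and 16802 to 21243 at 4 dpa. Of 16 epidermis markers 8 were lower and 3 higher in WT at 1 dpa, and 11 lower and 0 higher at 4 against 0 dpa, with sums from 874728 to 1855450 at 0 dpa down to 351132 to 422719 at 4 dpa. Of 14 fin mesenchyme markers 8 were higher and 3 lower in WT at 4 against 0 dpa, with sums from 15515 to 19826 up to 221077 to 297962. Their median log2 change was 1.05, so the rise of these sums does not stand for the list as a whole. Joint cell markers were tested for 4 of 7 IDs, with evx1 and EVX1 at 0, and in WT 1 rose and 0 fell by 1 dpa and 2 rose and 1 fell from 0 to 4 dpa. mmp13a, a collagenase, rose from a WT mean of 9.14 to 250 by 1 dpa and was at 76.0 at 4 dpa. By 4 dpa pthlha rose from 89.6 to 478, and prg4a, a lubricin gene, fell from 1561 to 235. The sums of the joint markers, in which prg4a had the largest part at 0 and 1 dpa, were 1673 to 1782 in WT at 0 dpa, 1920 to 2048 at 1 dpa and 615 to 1078 at 4 dpa. Muscle markers were tested for 6 of 12 IDs, with pvalb2 at 0, and in WT 2 rose and 1 fell by 1 dpa. A copy of TNNT3 (ENSDARG00000068457) rose from a WT mean of 44.1 to 358, and ACTA1 from 35.7 to 70.3. The muscle creatine kinase gene ckma fell from 59.4 to 14.1. ckmb and the other TNNT3 copy (ENSDARG00000030270) were not called (log2 -0.55 and -0.13). Nor was actc1b, at low WT means of 3.62 and 13.4 (log2 1.69, adjusted p = 0.143), though DESeq2 called it higher (adjusted p = 0.0325). The muscle sums were 160 to 199 in WT at 0 dpa and 425 to 545 at 1 dpa. The rising TNNT3 copy had the largest part in them at 1 dpa, so their rise does not stand for the list as a whole. Vessel and smooth muscle markers, tested for 10 of 11 IDs, had sums of 14380 to 29304 in WT at 0 dpa and 5935 to 6500 at 4 dpa. From 0 to 4 dpa 2 of them were called higher and 4 lower in WT (median log2 0.10). The fall of their sums therefore does not stand for the list as a whole.

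The order of the groups by mean shows where the osteoblast genes part. For panx3 it ran KO 1 dpa, WT 1 dpa, KO 0 dpa, WT 0 dpa, WT 4 dpa, KO 4 dpa, and no neighbours in this order overlapped. sp7 had the same order, but the genotypes overlapped at 1 and at 0 dpa, and for phex WT 0 dpa came before KO 0 dpa with the same overlaps. For entpd5a WT 0 dpa stood alone at the top, and KO 0 dpa, WT 4 dpa and KO 4 dpa overlapped below it. For ifitm5 the 4 groups at 0 and 4 dpa overlapped from neighbour to neighbour. For mgp KO 4 dpa had the lowest mean, and its libraries lay below those of WT 1 dpa and WT 4 dpa. They overlapped with KO 1 dpa, whose lowest library (26.2) was under the highest of KO 4 dpa (35.1). WT 1 dpa, WT 4 dpa and KO 1 dpa overlapped, with both 0 dpa groups above them.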

How the data were processed

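Caudal fin RNA of 6 groups (KO and WT at 0, 1 and 4 dpa, 3 pools each) was measured in 18 libraries. Total RNA was copied into cDNA, tagged with Tn5 and read as paired ends, per the labels' protocols. The submitters' processing notes name Trim Galore 0.6.7, cutadapt 3.5, STAR 2.7.10 and the build danRer11. The sources used here give neither the annotation nor the strand setting of counting, so overlapping and antisense genes cannot be told apart. The deposited signal is 1 normalised read count per gene and library.

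All 18 columns were whole multiples of 1 step per library, so whole reads could be recovered for 100% of values (tolerance 0.001), with size factors of 0.401 to 2.56. No replicates agreed within counting error (lowest chi-square per degree of freedom 35.5). Gene names came from a table that matched 29201 of the 32520 IDs. The 22779 genes that reached a value of 10 in 3 or more libraries were tested. limma 3.58.1 (R 4.3.3, trend option) was fitted to the group means of log2(value + 1) with 12 residual degrees of freedom, which understates changes of low genes. Two-sided p-values were adjusted by the Benjamini-Hochberg method at 0.05. As alternatives, edgeR 4.0.16 and DESeq2 1.42.0 were run on the whole reads. For 1 against 0 dpa in WT these called 9452 and 10474 genes, against 9154 in limma. The fitting step was also run on simulated reads with planted changes. These held no split by the share of the dominant genes, so they do not bear on calls that move with that share.

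The 10 genes and the other lists were chosen with earlier results of these data known. The 11 other lists held 166 entries. In each, the called members with the largest changes in each direction were eligible to be named, up to 3, leaving out here those with a mean under the floor of 3 reads, and some results are not reported here. Alternatives were 2 pseudocounts (0.5 and 5), no filter and a stricter one (50), TMM and size factor scaling, DESeq2, a replicate block, no low-share libraries, the share of the dominant genes as a covariate, and each of the 18 libraries left out.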

Additional observations from a re-analysis of the deposited data

How the results depend on the processing

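Of 104 results (8 genes in 13 comparisons), 39 were called, and 29 of these calls held in all 29 alternative settings. The other 10 were lost in at least 1, and 8 of the 65 uncalled results were called in at least 1. For KO against WT at 0 dpa, where limma called none of the 8 genes, DESeq2 called 2 (entpd5a and panx3), and 1 gene, entpd5a, was called with a pseudocount of 5, with the share covariate and after TMM rescaling without the dominant genes. For 4 against 0 dpa in WT, 4 genes were called with the share covariate in place of 7. The calls of runx2a, runx2b, entpd5a (log2 -0.41, adjusted p = 0.42) and mgp (log2 -0.84, adjusted p = 0.432) were lost, and ifitm5 turned to a called rise (log2 1.15, adjusted p = 0.013). With this covariate runx2a in WT at 4 against 0 dpa had a log2 value of -0.0066 and runx2b -0.0589, both of the other sign than without it, and runx2b in WT at 1 against 0 dpa was -0.52 without the low-share libraries. The share lay between 87.5% and 90.5% in WT at 4 dpa and between 3.61% and 34.3% at 0 dpa, so that covariate and time are nearly confounded there. In KO, too, it did not overlap, at 79.0% to 82.9% at 4 dpa and 2.71% to 57.9% at 0 dpa. The cause of these changes was not tested. The fall of sp7 in WT at 1 dpa was not called with the covariate (log2 -0.64, adjusted p = 0.0593). That of phex was not called without the low-share libraries (log2 -0.32, adjusted p = 0.265). Without them WT at 0 dpa has 1 library, which is assumed to vary like the others.

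When each library was left out in turn, the number of genes called ran from 0 to 1 for KO against WT at 0 dpa and from 0 to 0 at 1 dpa, at 4 dpa, for the average and for the 3 interactions. It ran from 6 to 7 in WT and from 7 to 7 in KO for 1 against 0 dpa, from 6 to 7 and from 5 to 6 for 4 against 0 dpa, and from 5 to 7 and from 5 to 7 for 4 against 1 dpa. In KO, runx2b lost its call at 4 against 0 dpa without 0 dpa replicate 2 (log2 0.62, adjusted p = 0.0811) and at 4 against 1 dpa without 1 dpa replicate 1 (log2 0.82, adjusted p = 0.106). runx2a lost its call at 4 against 0 dpa in KO without 0 dpa replicate 2 (log2 0.44, adjusted p = 0.213), without any 1 of the 4 dpa libraries, in edgeR (adjusted p = 0.059) and with the share covariate (log2 0.23, adjusted p = 0.633), and in WT without replicate 2 or 3 of 0 dpa (log2 0.73 and 0.71) or of 4 dpa (log2 0.85 and 0.91).

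Replicate numbers did not pair the libraries throughout. Of 27 same-numbered pairs the correlation of deviations ran from -0.615 to 0.735, and 8 were over 0.1. In 0 of 9 comparisons were all over 0.1, and 11 correlated best with their own number. For 4 against 1 dpa each 4 dpa library did so in both genotypes, with r of 0.0255 to 0.0538 in WT and 0.0519 to 0.209 in KO. With the replicate block 7 of the 8 genes were called for 1 against 0 dpa in WT, as without it, and 0 between genotypes at each time, while over all genes 15 in place of 23 were called at 0 dpa.

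Over all genes, 3502 were called with the share covariate and 12657 without it for 4 against 0 dpa in WT, and 4733 and 9154 for 1 against 0 dpa, where 5400.0 were called without the low-share libraries. Other scalings moved the median log2 of all genes by at most 0.06. The depth outside the dominant genes, 10.5 M to 75.5 M reads, limits mgp most.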
